A study of Mus musculus with 9 samples.

Results

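The actin and myosin cytoskeleton genes described here are a fixed list of 55 mouse genes that encode actins, their crosslinking and side-binding proteins, myosins and myosin light chains, formins, Ena/VASP proteins, the Arp2/3 complex with its activators, filament turnover and capping factors, and the ERM proteins that tie filaments to the membrane. A gene counted as measured where the array had a probe set that carries its symbol alone, and where it had several, that with the highest mean log2 signal on the 9 arrays was used. By this rule 49 of the 55 were measured, of 17097 genes tested. Actn4, Tagln, Tagln2, Myl12b, Fmnl3 and Actr2 were not analysed here.

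Actin filaments push and pull cells. Branched networks nucleated by the Arp2/3 complex and long filaments extended by formins and Ena/VASP proteins drive the front of a migrating cell, whereas myosin II slides filaments past each other and tropomyosins, caldesmon and calponins set which filaments it can reach. During re-epithelialisation, basal keratinocytes next to the wound crawl under the scab while those behind them divide.

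Expression was measured on 9 arrays of basal cells of the tail interfollicular epidermis from CD1 mice, 4 days after a punch wound of 3 mm. All cells were sorted for α6 integrin and against CD34, a marker of the hair follicle bulge. The leading edge (LE), cut with a 4 mm punch around the wound, was further gated as ITGA5 positive, the proliferative hub, cut with a 6 mm punch, as ITGA5 negative, and control cells came from skin of the wounded tails away from the wound, with no ITGA5 gate in their labels. Each group had 3 arrays, each from 300 sorted cells of tissue pooled from 5 mice. The ITGA5 gate, the position of the skin and wounding itself differ together between the groups, and their parts in a difference cannot be told apart. The labels call the arrays biological replicates and the methods call them technical, so the p-values speak only of the variation among these samples, and that may be technical.

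All values are log2 signal after RMA, the authors' normalization, so that a difference of 1 is a doubling, and differences are given ± SE with the Benjamini-Hochberg adjusted p of limma over all 17097 genes. A gene was called where that p was under 0.05. The median of the 23 nonspecific background probe sets was 4.66, and signals under 5.66 (1 above that median) are treated as near background. Single values of these probe sets ran from 3.66 to 8.61, so 5.66 is not a firm floor. The 6 basal epidermal markers summed to 15.29 to 15.43 on all 9 arrays, with Krt5 and Krt14 near the top of the scale, Itgb4 higher at the LE than in the hub (0.38) and Dst lower (-0.40). Itga5, the sorted gene, averaged 9.11 at the LE, 6.92 in the hub and 6.40 in control skin, above the others where cells were gated as positive for it.

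Most of the called cytoskeletal genes were higher at the LE. Between LE and hub 29 of the 49 were higher at the LE and 0 were lower, whereas among all genes 5.39% were called higher and 5.23% lower. The 0 was not stable: Myo5a was called lower with array weights, with only the 6 arrays compared and without control replicate 1 or control replicate 3 (adjusted p = 0.0244 to 0.0461), and Pdlim2 in the second and last of these fits (0.0164 and 0.0263). Against control skin, 33 were higher at the LE (background 11.9%) and 1 was lower, the vesicle motor gene Myo5a (background 10.8%). Alternatives also called Pdlim2 lower there without control replicate 3 (-0.60, adjusted p = 0.00199) and Myo6 with the mean of all probe sets (-0.31, adjusted p = 0.0166). The hub itself stood above control skin in 10 members (background 4.16%) and below it in 0 (background 3.12%), although Myo1e was called lower there under 4 alternatives, Palld and Myl6 with the mean of all probe sets and Myh10 without control replicate 3 (adjusted p = 0.0122 to 0.0495 over these fits). The median difference of the members was 0.31 between LE and hub, 0.41 between LE and control and 0.06 between hub and control, beside -0.01, 0.02 and 0.03 over all genes. Of the 49 members, 43, 39 and 30 lay above 0 in these comparisons. The 3 comparisons share arrays, so their values are given side by side. From these same arrays the paper had already listed Fscn1, Cald1, Fmnl2, Myo5b, Myh9, Tpm1 and Tpm2 as higher at the LE. The members were also chosen with earlier results of these data known. The contrast of their counts with all genes is therefore a description and not a test.

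The study's own rule was read here as a fold over 2 in each same-numbered pair of arrays, for the 1 probe set used per gene. Under it, 4 members were higher at the LE than in the hub (Acta2, Cald1, Tpm1 and Pdlim7), where all genes gave 0.69%. No member was lower (0, background 0.351%). Against control skin the rule kept 9 at the LE, which were these 4 with Fscn1, Tpm2, Cnn2, Cnn3 and Myh9 (background 1.78%), and 0 lower (background 1.23%). The hub passed it against control skin in Fscn1 and Cald1 (2 members, background 0.298%), and 0 were lower (background 0.222%). Fscn1, Fmnl2, Myo5b, Myh9 and Tpm2, which the paper lists for the LE, did not pass it here between LE and hub.

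By their calls the members fell into few patterns. In 8 of them (Acta2, Fscn1, Cald1, Tpm2, Cnn2, Pdlim7, Myh9 and Fmnl2) the order was LE over hub over control, with all 3 comparisons called. In 20 the LE was above both other groups and the hub was not called against control. Myl9 and Enah were called in both wound groups against control skin and not between them. Another 14, among them Actb, Cfl1 and Ezr, were called in no comparison.

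**Figure D1:**
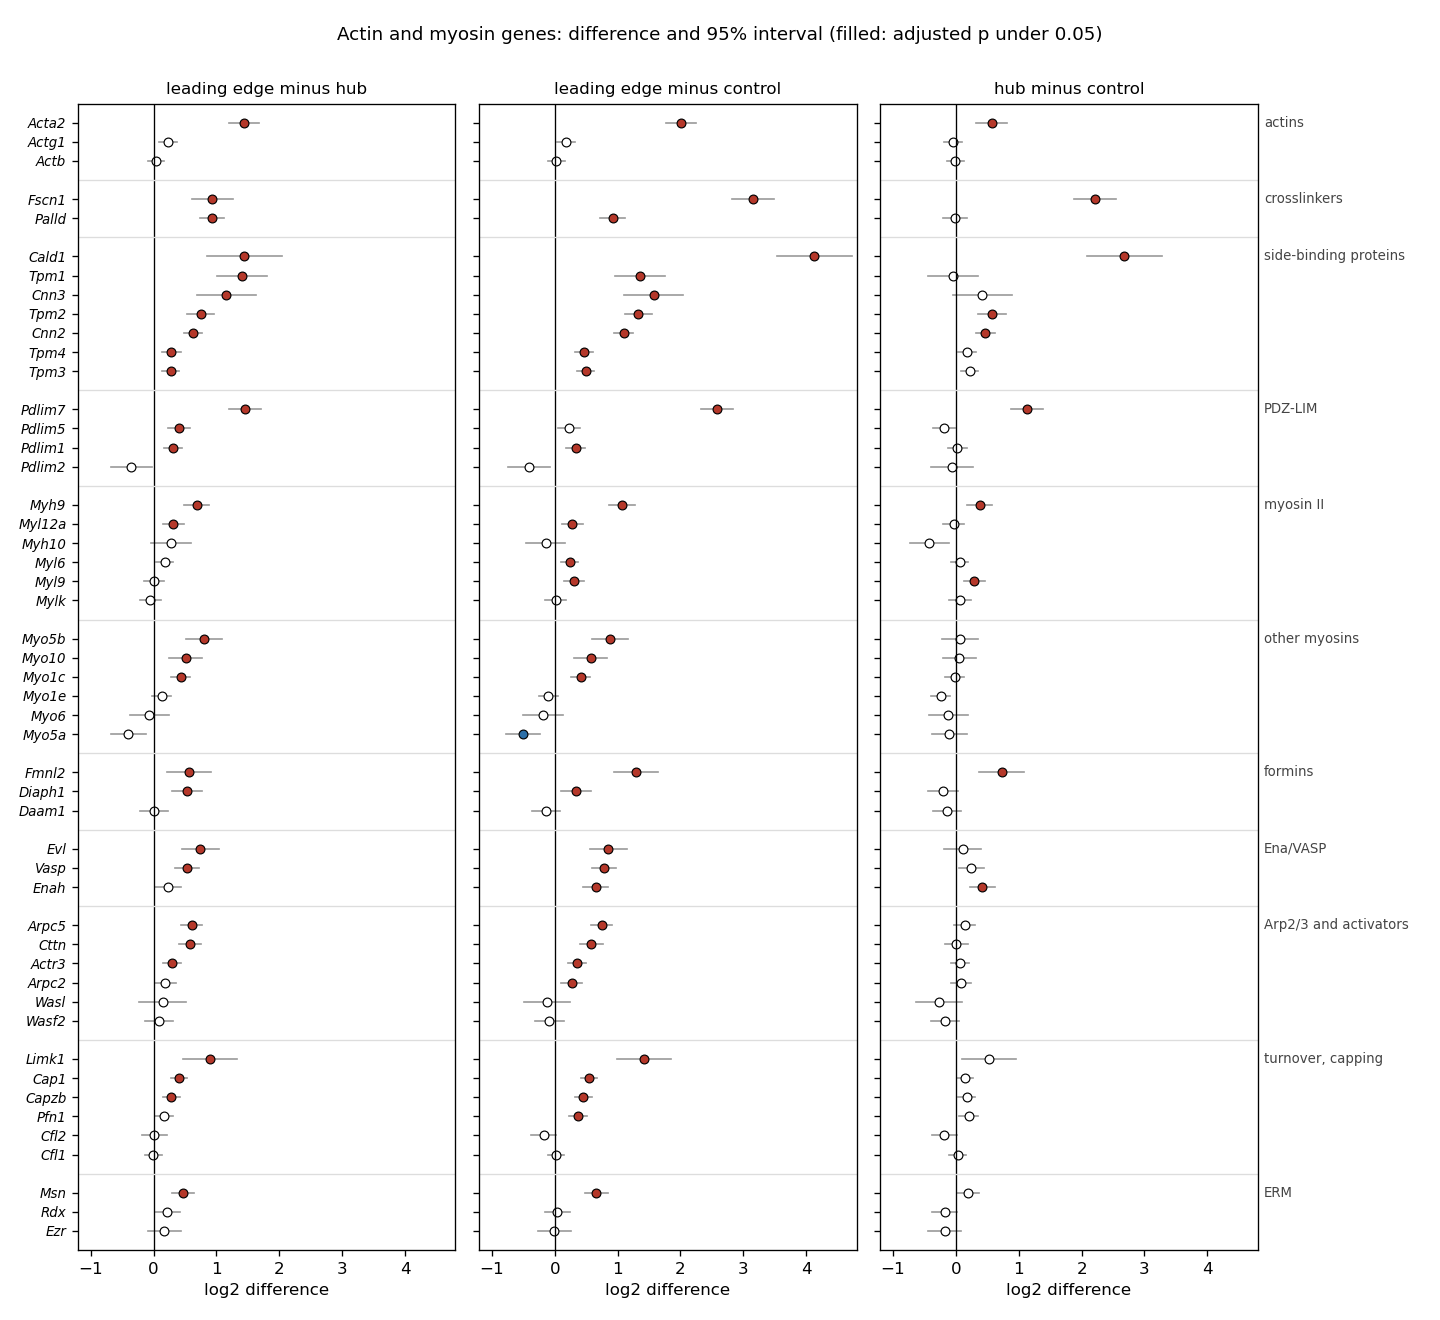
Log2 differences of the 49 measured genes between LE and hub, LE and control and hub and control (x axes), with 95% confidence intervals from limma, grouped by role from top to bottom. Filled points passed an adjusted p under 0.05, red for higher and blue for lower. Cald1 reached 4.13 between LE and control, and the only blue point is Myo5a at -0.50.

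Of the 3 actins, only Acta2 was called. Acta2 encodes the smooth muscle α-actin that myofibroblasts and contractile cells assemble into stress fibres (chr19:34240336-34255585, GRCm38.p6). It read 9.65, 9.66 and 9.50 on the LE arrays, 7.96, 8.24 and 8.28 on the hub arrays and 7.57, 7.75 and 7.47 on the control arrays, so that the 3 groups did not overlap. Its signal was 2.71-fold higher at the LE than in the hub (1.44 ± 0.11, adjusted p = 5.1e-05) and 4.01-fold higher than in control skin (2.00 ± 0.11, adjusted p = 1.91e-06). The hub exceeded control skin by 0.57 ± 0.11 (adjusted p = 0.0129), a call lost without hub replicate 2 or hub replicate 3 (adjusted p up to 0.0549) and with the mean of all its probe sets. The array's naming marks this Acta2 probe set as one that can also match related transcripts, as it does those of Actg1 and Cald1, and a second, near background at a mean of 5.63, gave -0.12 between LE and hub (adjusted p = 0.576, over all probe sets).

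The cytoplasmic actins, which every cell uses, showed no called difference. Actb lay between 13.60 and 13.68 on all 9 arrays, where the highest value of any probe set on an array was 13.63 to 13.68, so the probe set sits at the top of the scale. A dimmer Actb probe set was 0.24 higher at the LE than in the hub (adjusted p = 0.0403, over all probe sets). Actg1 differed by 0.23 ± 0.07 between LE and hub (adjusted p = 0.055). The 8 members whose mean was over 12 (both cytoplasmic actins, Myl6, Arpc2, Cfl1, Pfn1, Cap1 and Capzb) differed by a median of 0.18 between LE and hub, and 2 of them were called.

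Both measured crosslinkers were higher at the LE. Fscn1 encodes fascin, which packs filaments into the tight bundles of filopodia (chr5:142960355-142973189). Its signal was 11.90 to 12.03 on the 3 LE arrays, 10.91, 11.14 and 11.08 in the hub and 8.45, 8.97 and 9.06 in control skin. The largest step for Fscn1 was between control and hub, 2.22 ± 0.15 (4.64-fold, adjusted p = 5.87e-05), and the LE was a further 0.93 ± 0.15 above the hub (adjusted p = 0.00326). Against control skin the LE was 8.88-fold higher (3.15 ± 0.15, adjusted p = 8.84e-07), and all 4 Fscn1 probe sets were called in that comparison. Between LE and hub not all were, since sets with 0.79 and 0.30 had adjusted p = 0.0765 and 0.0594 (over all probe sets).

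Palld encodes palladin, a scaffold of stress fibres and focal adhesions. It read 11.50, 11.59 and 11.53 at the LE, 10.48, 10.71 and 10.64 in the hub and 10.61, 10.74 and 10.51 in control skin. Hub and control overlapped, and their difference was -0.01, with a 95% confidence interval from -0.20 to 0.18. The LE was higher than the hub by 0.93 ± 0.09 (adjusted p = 0.000178) and higher than control skin by 0.92 ± 0.09 (adjusted p = 5.36e-05).

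Every measured gene of a side-binding protein was called, since all 7 were higher at the LE than in the hub and than in control skin, and 3 were higher in the hub than in control skin. Their median differences were 0.75, 1.33 and 0.42. Cald1, which encodes caldesmon, a brake on the actomyosin ATPase that also stabilises filaments, gave the largest difference of all 49 members against control skin (chr6:34598495-34775469). It measured 10.53, 10.76 and 10.74 at the LE, 8.95, 9.56 and 9.18 in the hub and 7.24, 6.17 and 6.23 in control skin. These steps came to 1.45 ± 0.26 from hub to LE (adjusted p = 0.00728) and 2.68 ± 0.26 from control to hub (6.41-fold, adjusted p = 0.000577). From control to LE the difference was 4.13 ± 0.26, or 17.5-fold (adjusted p = 5.87e-06). Control replicate 1 lay above the other control arrays. Of its 5 probe sets, all were called between LE and control, with differences from 0.65 to 4.13. The dimmest sets were not called between LE and hub (0.42 and 0.67, adjusted p = 0.0727 and 0.0522, over all probe sets). Nor were they between hub and control (0.23 and 0.18, adjusted p = 0.382 and 0.716).

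Tpm1, an α-tropomyosin gene whose products lie along the filament groove, showed a different pattern. Its values were 10.55, 10.64 and 10.55 at the LE, 8.82, 9.55 and 9.15 in the hub and 9.16, 9.02 and 9.49 in control skin. Hub and control overlapped (-0.05, 95% confidence interval from -0.45 to 0.35), and the LE was above them by 1.41 ± 0.18 (adjusted p = 0.000989) and 1.36 ± 0.18 (adjusted p = 0.000446). The 3 Tpm1 probe sets were all called between LE and hub, at 1.41, 1.53 and 1.03. Against control skin they parted, because the dimmest gave -0.11 (adjusted p = 0.736, over all probe sets) and was lower in the hub than in control skin (-1.14, adjusted p = 0.00569).

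Cnn3 encodes acidic calponin, which binds filaments beside tropomyosin. Its probe set, marked as open to cross-hybridisation, was dim, with 6.94, 7.14 and 7.15 at the LE, 5.69, 6.52 and 5.56 in the hub and 5.56, 5.49 and 5.47 in control skin, and 4 of the 9 arrays lay near background. The LE was higher than the hub by 1.16 ± 0.21 (adjusted p = 0.00694) and higher than control skin by 1.57 ± 0.21 (adjusted p = 0.000514). Among the remaining side-binding genes, Tpm2 was higher at the LE than in the hub by 0.75 ± 0.10, Cnn2 by 0.63 ± 0.06, Tpm4 by 0.28 and Tpm3 by 0.27. Tpm2 and Cnn2 were also higher in the hub than in control skin, by 0.57 ± 0.10 (adjusted p = 0.00709, lost with the mean of all Tpm2 probe sets) and 0.47 ± 0.06 (adjusted p = 0.0029). The LE to hub calls of Tpm3 and Tpm4 did not survive every omission of 1 array: that of Tpm3 was lost without LE replicate 2 or 3 or hub replicate 1 or 2 (adjusted p up to 0.0728), and that of Tpm4 without LE replicate 1 or 2 or any hub array (up to 0.0723).

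PDZ-LIM proteins dock kinases and other partners on α-actinin-bound stress fibres. Of the 4, Pdlim7 (chr13:55497487-55513473) separated the groups most, with 10.63, 10.54 and 10.54 at the LE, 8.94, 9.18 and 9.24 in the hub and 8.18, 8.02 and 7.78 in control skin. The LE exceeded the hub 2.73-fold (1.45 ± 0.11, adjusted p = 6.75e-05) and control skin 5.96-fold (2.58 ± 0.11, adjusted p = 7.23e-07), and the hub exceeded control skin by 1.13 ± 0.11 (adjusted p = 0.000614). A dimmer Pdlim7 probe set was also called higher at the LE, by 0.93 over the hub and 0.71 over control skin. Between hub and control it gave -0.22 (adjusted p = 0.297, over all probe sets). Pdlim5, by a probe set marked as open to cross-hybridisation, was higher at the LE than in the hub by 0.40 ± 0.08 (adjusted p = 0.00941). From control skin it differed by 0.22 (adjusted p = 0.0724). The next brightest Pdlim5 set was called there (0.36, adjusted p = 0.00769, over all probe sets), and the others were not. Pdlim1 was higher at the LE than in the hub by 0.31 ± 0.07 (adjusted p = 0.0158) and than in control skin by 0.33 (adjusted p = 0.00526), the first lost without LE replicate 2, hub replicate 1 or hub replicate 3 (adjusted p up to 0.0561). Pdlim2 leaned the other way, with -0.35 ± 0.15 between LE and hub (adjusted p = 0.186) and -0.41 between LE and control (adjusted p = 0.0765).

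**Figure D2:**
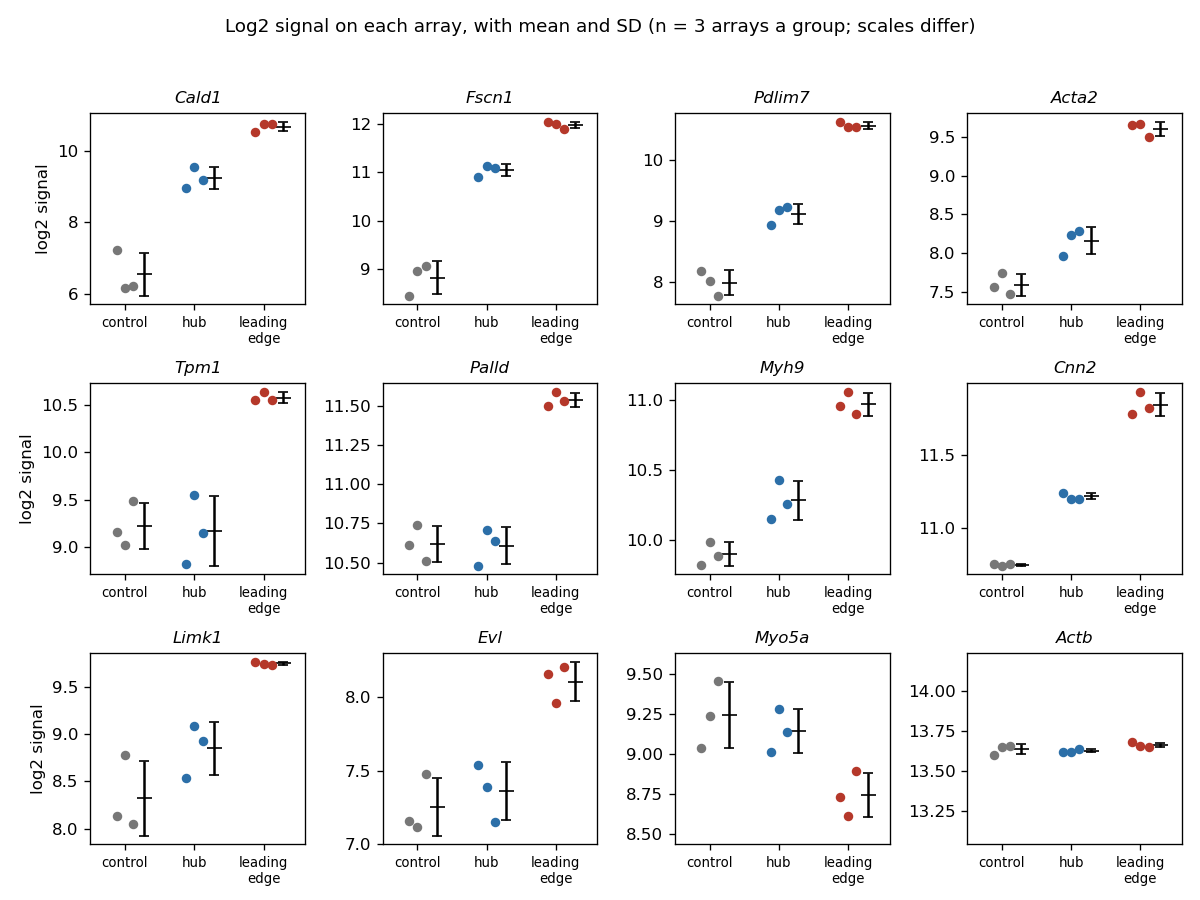
Log2 signal (y axes, scales differ) of 12 of the genes on each control, hub and LE array, with points for arrays and bars for the mean and SD of 3 arrays a group. Acta2, Fscn1, Cald1 and Pdlim7 step up from control to hub to LE, whereas Palld and Tpm1 overlap between control and hub and are higher at the LE.

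Myosin II was less uniform than the filament-binding proteins, with 2 of 6 measured members higher at the LE than in the hub and 4 of 6 higher than in control skin. Myh9, the heavy chain of nonmuscle myosin IIA and the motor of most cortical tension, read 10.96, 11.06 and 10.90 at the LE, 10.15, 10.43 and 10.26 in the hub and 9.82, 9.99 and 9.89 in control skin. Those groups did not overlap, with LE over hub by 0.69 ± 0.09 (adjusted p = 0.0012), LE over control by 1.07 ± 0.09 (adjusted p = 2.76e-05) and hub over control by 0.38 ± 0.09 (adjusted p = 0.0321). The hub call was lost without hub replicate 2 or 3 or control replicate 1 or 3 (adjusted p up to 0.105). Myh10, the IIB heavy chain, gave 0.28 between LE and hub (adjusted p = 0.288) and -0.42 between hub and control (adjusted p = 0.116).

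The light chains did not follow Myh9 closely. Myl9, a regulatory light chain, was 8.16, 8.30 and 8.25 at the LE, 8.32, 8.17 and 8.20 in the hub and 7.89, 7.97 and 7.94 in control skin. LE and hub overlapped (0.01 ± 0.07, adjusted p = 0.982), and both lay above control skin by 0.30 ± 0.07 (adjusted p = 0.0137 for LE and 0.0379 for hub). The LE call was lost without LE replicate 2 (0.0565), and the hub call without any single array but LE replicate 1 (up to 0.125). Myl12a, a second regulatory light chain, was higher at the LE than in the hub by 0.31 ± 0.07 (adjusted p = 0.0245, up to 0.0918 with 1 array omitted, lost without any LE array or hub replicate 1 or 3, and 0.134 with the mean of its probe sets). Against control skin Myl12a was 0.28 higher (adjusted p = 0.0228, lost without LE replicate 2 or 3 or control replicate 2 (up to 0.0794) and with the mean of its probe sets, 0.153). Mylk, the kinase that switches on these light chains, gave -0.05 between LE and hub and 0.02 between LE and control (adjusted p = 0.788 and 0.917).

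Myl6, the essential light chain, had probe sets called in opposite directions. Its brightest was 0.24 higher at the LE than in control skin (adjusted p = 0.0171, and 0.0552 without LE replicate 2) and the next 0.40 higher, whereas a dimmer set gave -0.78 (adjusted p = 0.00125, over all probe sets). With the adjustment over all probe sets, no other member had such a split in any comparison.

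Of the 6 other myosins, 3 were higher at the LE than in the hub. Myo5b, a motor of recycling endosomes, was 6.58, 6.82 and 6.84 at the LE, 5.83, 6.16 and 5.82 in the hub and 5.66, 5.94 and 6.01 in control skin, with no overlap of the LE with either group. Its LE values were above the hub by 0.81 ± 0.13 (adjusted p = 0.00342) and above control skin by 0.88 ± 0.13 (adjusted p = 0.000892). Myo10, which carries cargo to filopodial tips, was higher by 0.51 ± 0.12 (adjusted p = 0.021) and 0.57 ± 0.12 (adjusted p = 0.00623), and its LE to hub call was lost without any LE array or hub replicate 1 or 2 (adjusted p up to 0.0816). Myo1c, a membrane-tension motor, was higher by 0.43 ± 0.07 (adjusted p = 0.00269) and 0.41 (adjusted p = 0.00143).

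Myo5a, which hauls melanosomes and other vesicles, was the only member called lower at the LE than in control skin with all 9 arrays and 1 probe set a gene. It read 8.73, 8.61 and 8.89 at the LE, 9.01, 9.28 and 9.14 in the hub and 9.04, 9.24 and 9.46 in control skin, the LE below both. Its difference from control skin was -0.50 ± 0.12 (adjusted p = 0.0149, and 0.0599 without LE replicate 2), and its difference from the hub, -0.40 ± 0.12, had an adjusted p of 0.0705. Summed melanocyte markers were highest on LE replicate 3 (9.56). On LE replicates 1 and 2 the sums lay below those of every hub and control array, the lowest of which was 8.73. Of the 6 markers, 4 lay above 0 between LE and control. Only Mitf, near background on 6 arrays, was called there, as lower at the LE (-0.50, adjusted p = 0.0164). The part of melanocyte RNA in the Myo5a values was not tested. Myo1e, a motor of endocytic sites, and Myo6, which walks to the pointed end, were called in no comparison (0.13 and -0.07 between LE and hub). A dimmer Myo6 probe set gave -0.40 between LE and hub and -0.44 between LE and control (adjusted p = 0.0147 and 0.00439, over all probe sets).

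Among the factors that lengthen filaments, Fmnl2, a formin of protruding membranes, rose in steps from control to LE. Its signal was 8.13, 8.21 and 8.18 at the LE, 7.55, 7.55 and 7.73 in the hub and 7.28, 6.82 and 6.54 in control skin. The LE was above control skin by 1.29 ± 0.16 (adjusted p = 0.000287) and above the hub by 0.57 ± 0.16 (adjusted p = 0.049). The second of these calls was lost without any LE or hub array or without control replicate 2 (adjusted p up to 0.14). Hub over control came to 0.73 ± 0.16 (adjusted p = 0.0226), lost without any hub array or without control replicate 2 (up to 0.0876).

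Diaph1, a formin of unbranched filaments, was higher at the LE than in the hub by 0.54 ± 0.11 (adjusted p = 0.0111), a call lost with the mean of all Diaph1 probe sets (0.16, adjusted p = 0.438). Against control skin its difference was 0.34 ± 0.11 (adjusted p = 0.048), and that call needed every LE array, hub replicates 1 and 2 and control replicates 1 and 2 (up to 0.156 without 1 of them). With that mean it turned to -0.12 (adjusted p = 0.474), and the dimmest set was called lower (adjusted p = 0.00627, over all probe sets). Daam1, a Wnt-linked formin, gave -0.00 between LE and hub (adjusted p = 0.998).

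All 3 Ena/VASP proteins, which shield growing filament ends from capping, were higher at the LE than in control skin. Evl was 8.16, 7.96 and 8.21 at the LE, 7.54, 7.39 and 7.15 in the hub and 7.16, 7.12 and 7.48 in control skin, with hub and control overlapping. Its LE values exceeded the hub by 0.75 ± 0.13 (adjusted p = 0.00548) and control skin by 0.85 ± 0.13 (adjusted p = 0.0011). Vasp was higher than the hub by 0.53 ± 0.09 (adjusted p = 0.00386) and than control skin by 0.78 ± 0.09 (adjusted p = 0.000163).

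Enah, the Mena gene, was instead raised in both wound groups, with 11.63, 11.59 and 11.58 at the LE, 11.29, 11.43 and 11.38 in the hub and 11.11, 10.95 and 10.78 in control skin. Over control skin the LE stood 0.65 ± 0.09 higher (adjusted p = 0.000638) and the hub 0.42 ± 0.09 higher (adjusted p = 0.0221, up to 0.082 and lost without hub replicate 2 or 3 or control replicate 2 or 3). LE and hub differed by 0.23 ± 0.09 (adjusted p = 0.156), although 2 of the 4 Enah probe sets, both dimmer, were called there, at 0.65 and 0.37.

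In the branched network, 3 of 6 genes were higher at the LE than in the hub. Arpc5, a subunit of the Arp2/3 complex, read 10.95, 10.97 and 10.87 at the LE, 10.21, 10.38 and 10.38 in the hub and 10.19, 10.12 and 10.24 in control skin. The LE did not overlap the others and was higher by 0.61 ± 0.07 (adjusted p = 0.000907) and 0.75 ± 0.07 (adjusted p = 8.61e-05). Cttn, cortactin, which holds branches together, was 10.98, 11.15 and 10.96 at the LE, 10.49, 10.42 and 10.46 in the hub and 10.54, 10.46 and 10.34 in control skin. It was higher at the LE by 0.58 ± 0.08 in both comparisons (adjusted p = 0.00163 against hub and 0.000595 against control).

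Actr3, the Arp3 subunit, was higher by a smaller amount, 0.29 ± 0.06 over the hub (adjusted p = 0.0175, and 0.0728 at most without LE replicate 2 or hub replicate 2) and 0.35 over control skin (adjusted p = 0.00303). Arpc2 gave 0.19 over the hub (adjusted p = 0.155) and was 0.27 higher than control skin (adjusted p = 0.0247, up to 0.0782 and lost without any LE array or control replicate 1 or 2). The activators Wasl and Wasf2, which switch the complex on, gave 0.14 and 0.09 between LE and hub (adjusted p = 0.713 and 0.703).

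Filament turnover and capping genes divided in the same way. Limk1, the kinase that inactivates cofilin, was 9.76, 9.74 and 9.73 at the LE, 8.54, 9.08 and 8.93 in the hub and 8.13, 8.78 and 8.05 in control skin, with hub and control overlapping. The LE was above the hub by 0.89 ± 0.19 (adjusted p = 0.0154) and above control skin by 1.42 ± 0.19 (adjusted p = 0.00054). The LE to hub call was lost without any LE array or hub replicate 1 (adjusted p up to 0.0549) and with the mean of all Limk1 probe sets, of which the 2 dimmer gave 0.00 and -0.07. Cap1, which recycles actin monomers, was higher at the LE than in the hub by 0.40 ± 0.06 (adjusted p = 0.00221), and Capzb, a subunit of the barbed-end capping protein, by 0.28 ± 0.06 (adjusted p = 0.0154). The Capzb call was lost without LE replicate 3 or hub replicate 1 or 2 (up to 0.0567).

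Profilin and the cofilins were not called between LE and hub. Pfn1, which delivers monomers to growing ends, gave 0.17 between LE and hub (adjusted p = 0.163) and was 0.37 higher at the LE than in control skin (adjusted p = 0.00277). Cfl1 and Cfl2, the severing proteins, gave -0.01 and 0.01 between LE and hub (adjusted p = 0.976 and 0.967). A dimmer Cfl1 probe set was 0.46 higher at the LE than in control skin (adjusted p = 0.00158, over all probe sets) and gave 0.23 between LE and hub (adjusted p = 0.0815).

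Of the 3 ERM proteins only moesin was called. Msn was 11.61, 11.56 and 11.47 at the LE, 11.08, 11.09 and 11.06 in the hub and 10.74, 11.01 and 10.90 in control skin, so that the LE lay above both other groups. It was higher by 0.47 ± 0.08 over the hub (adjusted p = 0.00541) and by 0.66 ± 0.08 over control skin (adjusted p = 0.000307). Ezr and Rdx gave 0.17 and 0.22 between LE and hub (adjusted p = 0.483 and 0.177).

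Probe sets of a gene did not always tell the same story. Of the 33 members with more than 1 probe set, 7 had all of them called higher between LE and hub, 19 had some called and some not, and 7 had none called. Of the 29 members called higher between LE and hub, 7 have a single probe set, and 7 others were called by every probe set (Tpm1, Tpm2, Pdlim7, Actr3, Cap1, Capzb and Msn). Among the remaining 15, the other probe sets were all above 0 in 11, and at least 1 was below 0 in 4 (Acta2, Myo1c, Diaph1 and Limk1). Of the 33 members higher at the LE than in control skin, 8 had a probe set below 0 (Acta2, Palld, Tpm1, Tpm3, Myl6, Diaph1, Arpc5 and Limk1). Of the 10 higher in the hub than in control skin, 3 did (Acta2, Tpm2 and Pdlim7). Averaging a gene's probe sets lowered several values by more than 1.5 times without ending their call. Between LE and hub Acta2 then gave 0.66, Arpc5 0.31 and Myo5b 0.39. Between LE and control Cald1 gave 2.28, Pdlim7 1.64, Acta2 0.89, Limk1 0.54, Palld 0.48, Myo5b 0.40, Arpc5 0.32 and Myo5a -0.31, and between hub and control Cald1 gave 1.22 and Pdlim7 0.45.

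**Figure D3:**
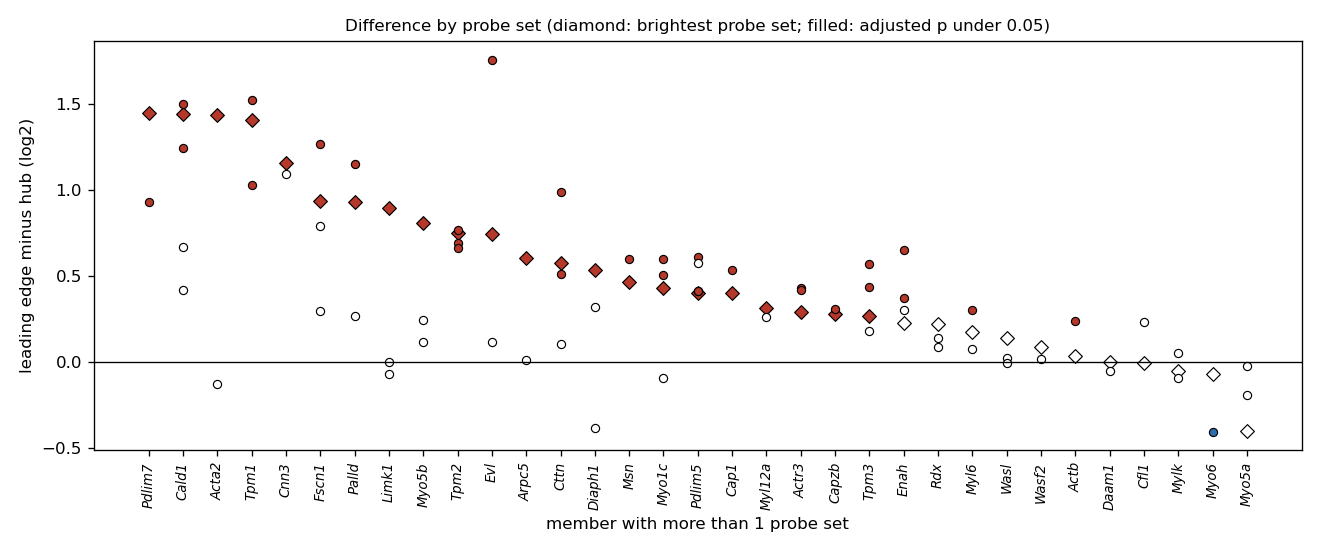
Log2 difference between LE and hub (y axis) of every probe set of the 33 members with more than 1, ordered by the brightest probe set, which is drawn as a diamond. Filled symbols passed an adjusted p under 0.05 over all probe sets, and 0 genes had probe sets called in opposite directions here. Acta2 and Limk1 combine a high diamond with dimmer sets near 0.

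The CArG box, the element that serum response factor (SRF) binds in many actin genes, was searched for in RefSeq promoter windows of GRCm38.p6, 300 bases long from 250 before to 50 after the transcript start. Its 10 letters read alike on both strands, so 1 strand was read. Some genes had several windows, around different transcript starts (32851 windows for 27025 genes), and a match in any of them counted. A window was held for 44 of the 49 members, and 5 of them (11.4%) had a match, whereas 488 of 27025 genes (1.81%) and 1.63% of all windows did. Among the genes higher at the LE than in the hub, 1 of 26 with a window had a match, and among the others 4 of 18. These sequences are printed because they are the 5 members with a match to the box before a transcript start, the box in capitals.
Myl9: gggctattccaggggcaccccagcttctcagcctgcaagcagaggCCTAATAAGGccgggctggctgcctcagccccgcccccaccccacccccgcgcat
Myo1e: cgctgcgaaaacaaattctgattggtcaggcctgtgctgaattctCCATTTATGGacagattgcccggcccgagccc
Cnn2: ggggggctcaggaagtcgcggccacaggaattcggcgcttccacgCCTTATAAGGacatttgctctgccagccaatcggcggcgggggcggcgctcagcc
Myl6: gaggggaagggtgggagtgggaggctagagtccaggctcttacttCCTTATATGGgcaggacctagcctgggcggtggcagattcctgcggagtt
Actg1: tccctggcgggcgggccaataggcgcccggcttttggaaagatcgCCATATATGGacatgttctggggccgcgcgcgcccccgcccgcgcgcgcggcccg
Myl9 lies at chr2:156775258-156775357 and Myo1e at chr9:70207273-70207349, both on the plus strand, as does Cnn2 at chr10:79988499-79988598. Myl6 lies at chr10:128493010-128493104 and Actg1 at chr11:120348531-120348630, both on the minus strand. The Myl6 stretch lies inside its gene, whose minus-strand 5' end is at 128493886, so its box precedes an inner transcript start. For Myl9 the transcript start used likewise lies after the first base of the gene, 156775408. Counted back from the transcript start of each window, the first base of the box is at 161 in Myl9, 32 in Myo1e, 56 in Cnn2, 50 in Myl6 and 90 in Actg1. Of these genes only Cnn2 was higher at the LE than in the hub (0.63). Acta2, Cald1, Tpm1 and Pdlim7 gave no match, which says only that these letters are not in their windows. The MCAT core GGAATG, a TEAD element, was read on both strands and found in 12 of the 44 members with a window (27.3%). Among them were Acta2, Cald1, Palld and Tpm1, and the shares were 16.6% of all genes and 14.7% of all windows. This core was in 7 of the 26 genes higher at the LE than in the hub and in 5 of the other 18. A match is a run of letters and not a bound site.

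Other genes of actin regulation were read from 3 lists with 79 genes, of which 70 were measured. Between LE and hub 26 were higher and 4 lower, between LE and control 32 and 7, and between hub and control 6 and 5. Over all genes, 5.39% were higher and 5.23% lower between LE and hub. The shares were 11.9% and 10.8% between LE and control, and 4.16% and 3.12% between hub and control. Median differences of the 70 were 0.25, 0.30 and 0.05. Of 27 further actin-binding proteins 19 were higher at the LE than in the hub and 2 lower, and of 19 genes of the Arp2/3, WAVE and formin machinery 3 and 1.

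Actn1, α-actinin 1, the stress-fibre crosslinker to which PDZ-LIM proteins bind, read 12.12, 12.11 and 12.05 at the LE, 11.15, 11.26 and 11.14 in the hub and 10.07, 10.02 and 10.06 in control skin. The 3 groups did not overlap, and the LE was above the hub by 0.91 and above control skin by 2.04. Synpo, synaptopodin, another stress-fibre protein, and Cotl1, coactosin, were higher at the LE than in the hub by 0.87 and 0.72. Both were also higher in the hub than in control skin, by 1.08 and 1.05. The Synpo calls were lost without LE replicate 1 or 2 or hub replicate 1 or 2 against the hub (adjusted p up to 0.0964), and without hub replicate 3 for hub against control (0.0571).

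Rhob, a small GTPase of endosomes and stress fibres, was 10.62, 10.87 and 10.65 at the LE, 9.76, 9.57 and 9.64 in the hub and 9.60, 9.64 and 9.81 in control skin. It was higher only at the LE, by 1.06 ± 0.09 over the hub (adjusted p = 0.000163), and hub and control overlapped (-0.03). Fhod1, a stress-fibre formin, exceeded the hub by 1.05 and Fmn1, the epithelial formin, by 0.39 (adjusted p = 0.0261). The Fmn1 call was lost without LE replicate 1 or 2 or hub replicate 2 or 3 (adjusted p up to 0.0926) and with the mean of all its probe sets (0.101). Mrtfa, the actin-sensing cofactor of SRF, was higher at the LE than in the hub by 0.60 (adjusted p = 0.00697). Srf itself, named after its values were seen, gave 0.21 between LE and hub (adjusted p = 0.0922) and was lower than in control skin in both the hub (-0.56, adjusted p = 0.00171) and the LE (-0.35, adjusted p = 0.00505).

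Lower at the LE than in the hub were Cdc42ep5, a Cdc42 effector (-0.64), and Arpc5l, the paralogue of Arpc5 (-0.40). With the mean of all probe sets the Arpc5l call was lost (-0.25, adjusted p = 0.1) and Arpc5 gave 0.31 (adjusted p = 0.0436). Gsn, gelsolin, a severing and capping protein, was named after its values were seen. It measured 11.07, 11.12 and 11.06 at the LE, 11.65, 11.57 and 11.49 in the hub and 12.18, 12.16 and 12.17 in control skin, the reverse of the order of Cald1 and Fscn1. Its difference between LE and hub was -0.48 ± 0.07 (adjusted p = 0.00147).

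Several cytoskeletal genes are also expressed by muscle, pericytes, fibroblasts and leukocytes, so their markers were read on the same arrays. In a bulk sample, more cells of a type and more RNA per cell cannot be told apart. The smooth muscle and pericyte list (10 of 12 measured) had 0 genes called between LE and hub. Over all genes 5.39% were higher and 5.23% lower there, so 0 of 10 is near the background. Its summed level was 10.29 to 10.36 at the LE, 10.35 to 10.45 in the hub and 10.08 to 10.23 in control skin. Actg2 and Mcam were near background on all arrays, and the muscle genes Myh11, Cnn1 and Des lay between 6.14 and 6.96 with LE and hub overlapping. Against control skin 2 of the 10 (Actg2 and Rgs5) were higher at the LE (background 11.9%) and 1 (Notch3) was higher in the hub (background 4.16%).

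The fibroblast markers had a summed level, set mostly by the brightest of them, of 10.72 to 11.04 at the LE, 11.72 to 12.10 in the hub and 12.29 to 12.34 in control skin. Of the 9, 0 were called higher and 2 lower at the LE than in the hub, Postn (-1.31) and Thy1 (-1.23). The shares over all genes were 5.39% higher and 5.23% lower. Col6a3 and Col1a1 gave 0.66 and 0.60 (adjusted p = 0.0649 and 0.222), Col3a1 gave -0.02, and Col1a2, Lum and Pdgfra were near background on all arrays. Summed myeloid markers were well above hub level on LE replicates 1 and 3 and near it on LE replicate 2. Of the 12, 3 were called higher at the LE than in the hub (Cd14, Cxcr2 and Lcp1, the last also an actin bundler on the lists above), beside the 5.39% over all genes. Against control skin 4 were higher at the LE (background 11.9%). The sum of the 12 was 10.51, 9.65 and 10.27 on the LE arrays, 9.56 to 9.62 in the hub and 9.55 to 9.57 in control skin.

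The median deviation of the 49 members from their mean over all arrays was 0.25, 0.26 and 0.22 on the LE arrays, -0.09, -0.05 and -0.05 on the hub arrays and -0.19, -0.17 and -0.15 on the control arrays. Endothelial markers had 0 of 10 called between any groups, where all genes gave 3.12% to 11.9% in each direction. Their sums were 9.96 to 11.28 at the LE, 9.96 to 10.49 in the hub and 9.64 to 9.81 in control skin, the highest on LE replicate 1. The part of myeloid, endothelial and fibroblast RNA in the differences of the members was not tested.

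**Figure D4:**
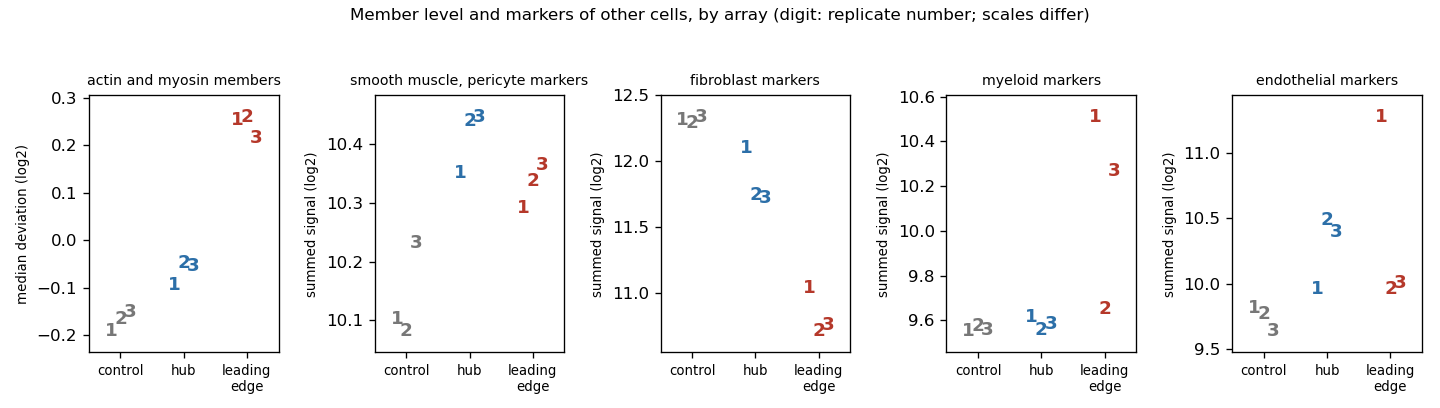
The median deviation of the 49 members from their mean over 9 arrays (first panel) and the summed signal of marker lists for other cell types (further panels), all log2 with different scales, drawn as the replicate number of each array in the control, hub and LE groups. The members are highest on all 3 LE arrays, the myeloid sum is near hub level on LE replicate 2, and the fibroblast sum falls from control to LE.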

How the data were processed

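Basal cells sorted from tail epidermis were profiled on Affymetrix mouse PM strip arrays, 9 in 3 groups of 3. The authors amplified cDNA from 300 cells and normalized the arrays with RMA (version not given in the sources used here), and the deposited values are log2 signals. RMA gives all arrays 1 distribution, so a change of total RNA cannot be seen, and it can compress differences near background and near the top of the scale. Array medians lay between 6.47 and 6.53. The number of arrays limits the precision. Arrays of a group correlated at 0.988 to 0.995 and those of different groups at 0.964 to 0.986, and 0 pairs were identical.

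Names of probe sets came from the platform annotation: 28898 of 45141 carried 1 symbol, 551 several and 15588 none, and only the first were used. All 49 measured members were found in RefSeq (GRCm38.p6) by gene identifier. All 9 arrays entered 1 limma model of group means (limma 3.58.1, R 4.3.3, lmFit and eBayes), two-sided, adjusted by Benjamini-Hochberg over 17097 genes, with no filter. The code was tested on simulated data. No test is stated in the study's methods, whose fold rule was counted beside the model. Probe sets were also fitted one by one, with adjustment over all probe sets, an alternative chosen after seeing the data. The members and gene lists were chosen with earlier results of these data known. The counts of 1 pathway list are not reported here.

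Named in full were, in each role, up to 3 called members with the largest difference between LE and hub, members called lower or with probe sets called in opposite directions, and up to 3 called genes of each pathway list. The other members were named so that each is accounted for, with Tpm2, Cnn2 and Enah chosen after their values were seen. Tried as alternatives were the fold rule, median centring, quantile normalization run again, weights for arrays, a trend of variance with mean, the replicate number as a block, the omission of dim genes, a gene's mean over its probe sets, only the 6 arrays compared and the omission of each array.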

Additional observations from a re-analysis of the deposited data

How the results depend on the processing

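Leaving out 1 array at a time, the members called between LE and hub numbered 21 to 31 (29 with all arrays), between LE and control 28 to 35 (34) and between hub and control 5 to 10 (10), the lowest without LE replicate 2 in both LE comparisons (as low without hub replicate 1 between LE and hub), and without hub replicate 2 or hub replicate 3 for the hub. The median member differences then ran from 0.30 to 0.34, 0.39 to 0.44 and 0.046 to 0.0928. Called in every such fit were 20 of the 29, 28 of the 34 and 5 of the 10. Under the fold rule 4, 9 and 2 members passed, and with only the 6 arrays compared 6 were called between hub and control. Median centring gave medians of 0.38 (LE and control) and 0.033 (hub and control), and repeated quantile normalization 0.0361 for the latter. With the mean of all probe sets, Diaph1 reversed to -0.12 and Myl6 to -0.0507 between LE and control. Replicate numbers did not pair the arrays (same-numbered correlations -0.18 to 0.08), and the fit with a replicate block called 26, 33 and 9. It lost Tpm4 (adjusted p = 0.054), Myl12a (0.0553) and Fmnl2 (0.0777) between LE and hub, Diaph1 (0.0814) between LE and control and Myl9 (0.0831) between hub and control. The other settings gave 26 to 33, 32 to 35 and 6 to 15 calls. Signal over background limits Cnn3, near background on 4 arrays, and Cfl2, at 5.56 to 5.93 on all arrays, and the top of the scale limits Actb.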
